A study of Homo sapiens with 4 samples.

Results

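The nuclear pore complex and the receptors that carry cargo through it were followed in hypoxic HT1080 cells through 54 genes of the 18417 that the arrays measured by name. A gene was taken where its symbol began with NUP, KPNA, KPNB, IPO, XPO or TNPO followed by a digit, or was AAAS, RAN, RANBP1, RANBP2, TPR, CSE1L, POM121, NDC1 or SEH1L. It had to have a probe set whose annotation named no other gene. These genes had 56 such probe sets, and each gene was represented by whichever of them had the highest mean value. KPNA2 and RAN had 2 each. NUP62 and POM121 were measured only by probe sets that also named other genes and were not among the 54. For RANBP2 the probe set used named that gene alone, while further probe sets named it together with its near copies of the RGPD family. Of the 54 genes, 51 belong to a known role in the pore or in transport, and the other 3 are the relatives NUP210L and NUP62CL and the pseudogene NUP210P1.

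HT1080 is an established human fibrosarcoma line of mesenchymal origin. Cells in low-serum medium spent 36 h under atmospheric 21% oxygen as control, or under 1% oxygen as hypoxia, and RNA was taken either from whole cells (total RNA) or from a fraction prepared with an endoplasmic reticulum isolation kit (ER-RNA) after brief exposure to cycloheximide, which arrests ribosomes on mRNA. Each of the 4 groups was 1 array loaded with RNA pooled from 5 experiments. There were therefore no replicates, no value has an error between samples, and no p-value is given.

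The nuclear pore complex is built of stacked rings of scaffold proteins set in the nuclear envelope, with filaments on the cytoplasmic side, a basket on the nuclear side, and a central channel lined by nucleoporins rich in phenylalanine-glycine repeats. Importins and exportins, together called karyopherins, pass through these repeats with their cargo. Direction is set by the small GTPase Ran, which is bound to GTP in the nucleus, where it releases import cargo and loads export cargo. The pore is known to be long-lived in resting cells and to be assembled anew when cells divide, and several karyopherins are abundant in proliferating tumour cells.

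Promoter sequence was examined for the members, whether or not they were called. RefSeq (GRCh38.p14) gave 58 promoters for 46 of the 54 genes, each running from 250 bases before the start of the gene to 50 bases after it, and 20 short motifs were searched on both strands among 35116 promoters. The letters CCAAT, the core of the CCAAT box, were found in 48.3% of the promoters of these genes and in 34.6% of all promoters. For 11 of the 13 genes that were lower at 1% oxygen in both fractions a promoter was listed, and 8 of these 11 held CCAAT in at least 1 of their promoters. The shares above are per promoter and over all members, so no like share over all genes stands beside this count. The other 2 genes, NUP43 and RANBP1, were not analysed here for promoter sequence. TTTGAA, the letters of the cell cycle genes homology region, was found in 25.9% against 15.2%, and CCGGAAG, a core recognised by ETS factors, in 22.4% against 10.3%. ACGTG and GCGTG, the letters at the centre of hypoxia response elements, were found in 29.3% against 21.4% and in 53.4% against 36.5%, where a match to the longer CACGTG (13.8% against 7.26%) also counts for ACGTG. Of the 20 motifs, 4 were less frequent in the promoters of these genes than in all promoters, among them TATAAA (6.9% against 11.5%) and TTTCCCGC (0% against 1.63%). Over the 11 genes lower in both fractions, CCAAT had the highest count of the 20 motifs. GGGCGG was held by 7 of the 11, TTTGAA by 6 and GCGTG by 5, so a frequent match was not particular to CCAAT. These matches describe the letters in the windows and are not evidence of binding. The windows printed here come from genes that fell in both fractions. For each of the 8 genes the match nearest to a start is given, 5′ to 3′ on the strand of the gene, with CCAAT or its reverse complement ATTGG in capitals.
KPNA2, chr17:68035665-68035694, plus strand: ggctcgaaccagCCAATcggaatgcggagt
CSE1L, chr20:49046207-49046236, plus strand: agcggggccccgATTGGcccttcgaacttg
NUP37, chr12:102120136-102120165, minus strand: aggccccgggagCCAATcgctgcgctcgcc
NUP107, chr12:68686828-68686857, plus strand: aaccaggaacacATTGGcaaacttttgcgc
NUP205, chr7:135557757-135557786, plus strand: atgggaataatcCCAATgaaaattgatgtt
NUP93, chr16:56730111-56730140, plus strand: ggccagccttggCCAATcaggaagcggggg
NUP88, chr17:5419691-5419720, minus strand: ggacggccgcggATTGGctgtgctcagcgg
XPO4, chr13:20902783-20902812, minus strand: gtcgcggcggcgATTGGccggccgcggcgc

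ACGTG and GCGTG were not particular to NUP58, the gene called higher at 1% oxygen in total RNA. Of the 11 genes that fell in both fractions and had a listed promoter, 3 held ACGTG and 5 held GCGTG. For NUP58 the matches to ACGTG and GCGTG nearest to its start are shown in the same way, with the motif in capitals.
NUP58, ACGTG, chr13:25301560-25301589, plus strand: ttccggcgggctACGTGcgcgcggcgagcg
NUP58, GCGTG, chr13:25301592-25301621, plus strand: gggcgtacttttGCGTGgttgctccacccc

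The array medians were 7.41 and 7.49 in total RNA and 6.25 and 6.34 in ER-RNA (log2 values, control then hypoxia), so levels were not compared directly between fractions. EGLN3, a prolyl hydroxylase gene induced by low oxygen, rose by 1.59 and 1.52 on the log2 scale in the respective fractions, and GAPDH differed by 0.12 and 0.13 without a call. Of 6 hypoxia markers, EGLN3 among them, 5 were called higher in each fraction, while ADM differed by 0.28 and -0.18 without a call. Of the mesenchymal markers, 6 of 7 lay above the array median on all 4 arrays, while EPCAM, CDH1, CLDN4, CDH5, VWF, PTPRC and CD3E lay below it on all 4 and the epithelial markers KRT19 and CLDN3 above it. The endothelial marker PECAM1 lay below the median in total RNA but above it in ER-RNA, and the leukocyte marker CD14 and the mesenchymal S100A4 lay above it in hypoxic ER-RNA alone. By these RNA values the ER-RNA did not stand apart from total RNA in the way its label would have it. Relative to all genes, 22 transcripts of secretory and ER proteins had a median ER-RNA over total RNA difference of -0.84 at 21% oxygen, and 18 transcripts of cytosolic proteins had one of 1.01. ER-RNA below therefore names the fraction by its label only. The study checked its ER fraction by western blots of ER and cytosolic marker proteins, which these RNA values do not measure. The medians of these lists are not given here under other normalisations.

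A gene was called lower or higher only where it was expressed (at least 1 array of the pair above its 50% quantile). Its fold change also had to be over 1.4 and its z-score over 3. For the z-score, a gene's log2 change was scaled by the SD between the 2 values of a pair, smoothed over genes of like level. That SD follows the typical size of a change and is not the spread of changes across genes. A z-score of 3 is therefore not 3 SDs of that spread. Rose and fell are used below only for genes that passed this rule. In total RNA, 15 of the 49 expressed members (30.6%) fell and 1 rose, where 7.45% of the 11530 expressed genes fell and 2.32% rose. In ER-RNA, 19 of 51 expressed members (37.3%) fell and 0 rose, where 8.25% of 11876 genes fell and 1.12% rose. These counts depended on the rule. With a fold threshold of 2, 8 and 12 members fell, where 3.3% and 5.57% of genes did. With the SD taken from scaled median absolute deviations, 1 and 3 members fell, where 1.81% and 2.01% of genes did, and the member share in total RNA was then near that of all genes. Both fractions gave a call of lower for 13 members, NUP107, NUP43, NUP37, NUP205, NUP155, NUP93, NUP88, KPNA2, IPO11, XPO4, XPO5, CSE1L and RANBP1. Among genes expressed in both fractions the share called lower in both was 4.56% (495 of 10851). The 2 members that fell in total RNA only were NUP188 and KPNA3, and the 6 that fell in ER-RNA only were NUP133, NUP85, SEH1L, NUP35, NUP42 and IPO8. The total RNA calls of NUP188 and KPNA3 and the ER-RNA calls of SEH1L and NUP42 each held under 7 of 11 other settings, and those of NUP188, KPNA3 and SEH1L were lost with quantile normalisation or loess within the pair. Among the 13 called in both fractions, the total RNA calls of NUP107 and XPO5 also held under 7 of 11. XPO5 lost that call with either normalisation, and NUP107 with quantile normalisation. NUP43 lost its total RNA call with loess and its ER-RNA call with quantile normalisation. Whether any gene differed between the fractions was not tested.

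The shift reached beyond the called genes. Of the 54 members, 48 (88.9%) had a log2 fold change below 0 in total RNA, as had 46 (85.2%) in ER-RNA. For all genes the shares were 46.8% and 43.3%. The members had a median log2 fold change of -0.51 for total RNA and -0.67 for ER-RNA, against 0.03 and 0.06 over all genes. Among expressed genes alone the medians were -0.52 and -0.74 for the members and -0.06 and -0.04 for all genes. Of the expressed members without a call, 14 of 33 in total RNA and 13 of 32 in ER-RNA were past the fold threshold downwards but not the z-score threshold, with z-scores down to -2.62 and -2.92. By the fold threshold alone, 29 and 32 expressed members were lower, where 18.6% and 21.4% of expressed genes were. Where a gene fell, its level at 1% oxygen was 0.446 to 0.604 of the control level in total RNA and 0.323 to 0.600 of it in ER-RNA. In pooled cultures a lower share of cells with a transcript and less of it per cell cannot be told apart.

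**Figure D1:**
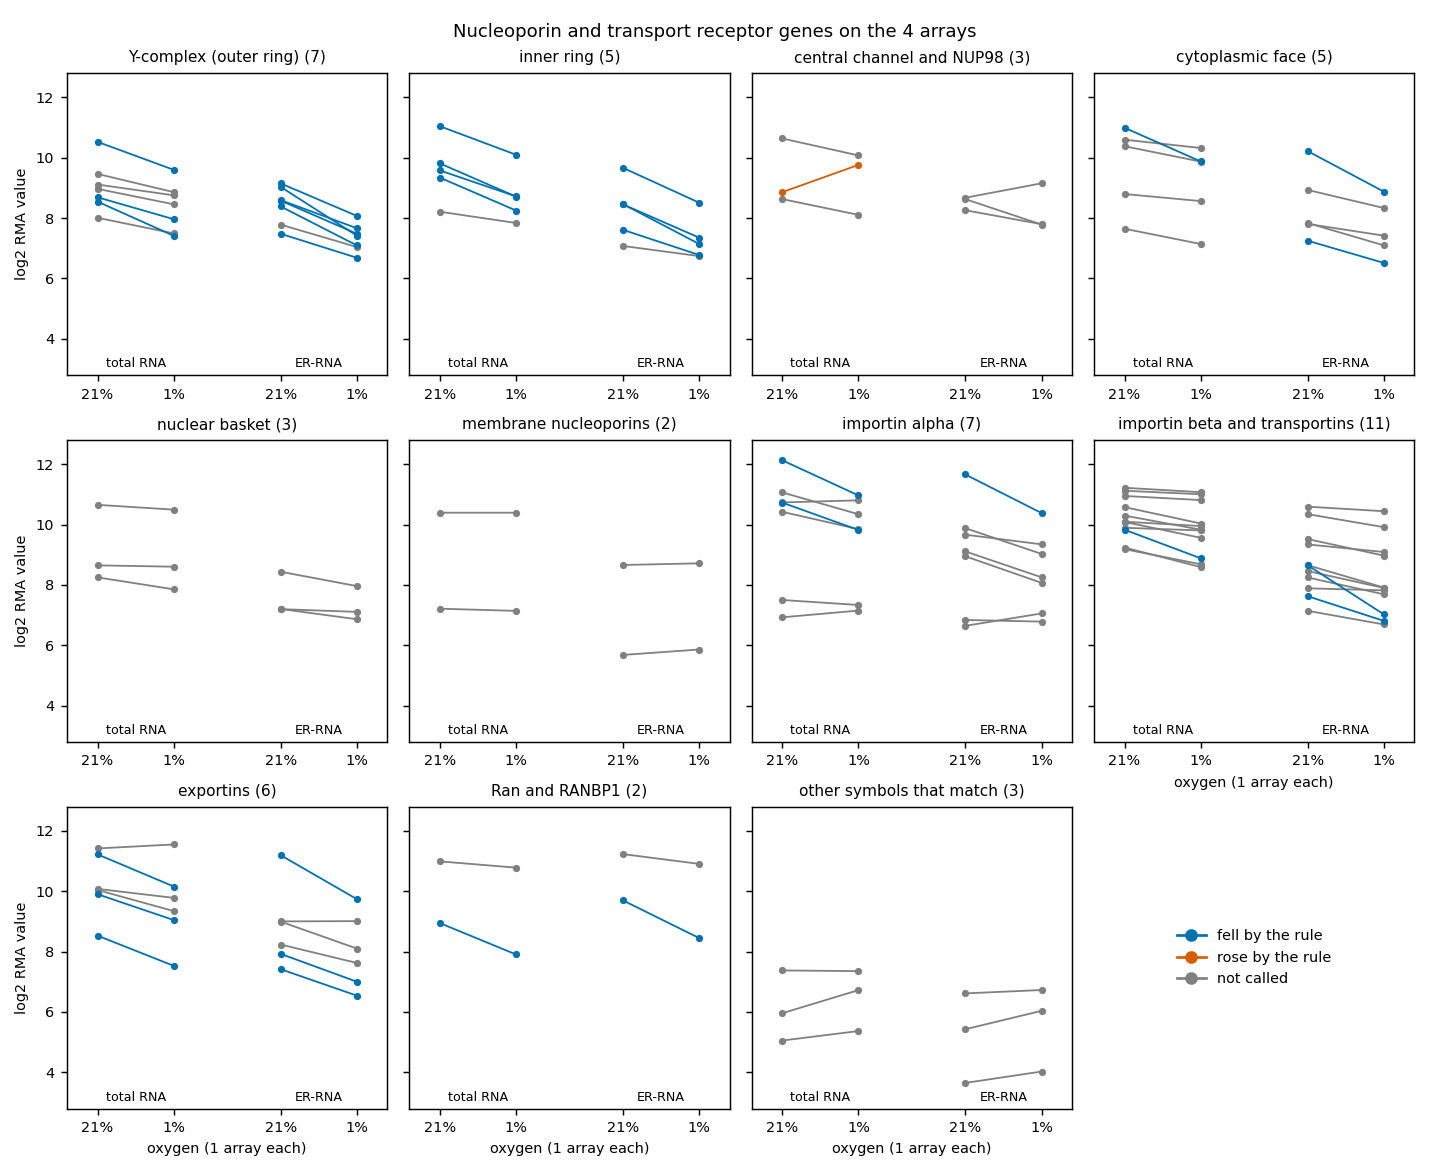
Log2 RMA values (vertical axis) of the 54 genes at 21% and 1% oxygen in total RNA and ER-RNA, with 1 line a gene and fraction, 1 array each, and 1 panel a role. Most lines slope down, lines in blue are the 15 calls of lower in total RNA and the 19 in ER-RNA, and the line in orange is NUP58.

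The Y-complex forms the outer rings of the pore. All 7 genes taken here had lower values at 1% oxygen in both fractions. Of these 3 fell in total RNA, while 6 fell in ER-RNA, and the median log2 fold changes were -0.61 and -1.08. SEC13, a further subunit that the choice by symbol leaves out of these counts, had log2 fold changes of -0.41 and -0.59 and no call. NUP37, a small propeller-shaped subunit, read 8.54 at 21% and 7.41 at 1% oxygen in total RNA, and 9.03 and 7.42 in ER-RNA. Its log2 fold changes were -1.13 (z-score -5.07) and -1.62 (z-score -5.38), the lowest of the complex in both fractions, and in total RNA its hypoxic value lay just below the array median. NUP107, the scaffold subunit after which the complex is often named, read 8.69 and 7.96 in total RNA and 8.39 and 7.09 in ER-RNA. It fell by 0.73 in total RNA, close to the z-score threshold with -3.06, and by 1.29 in ER-RNA, z-score -4.67.

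NUP43, another propeller subunit, read 10.53 and 9.60 in total RNA and 9.15 and 8.07 in ER-RNA and fell in both, by 0.93 and 1.08. NUP85 read 8.97 and 8.45 in total RNA, below the threshold of a call, and 8.58 and 7.48 in ER-RNA, a fall of 1.10. SEH1L, which also serves in the GATOR complex of nutrient signalling, read 9.46 and 8.86, then 8.60 and 7.66. These 3 genes had lower values at 1% oxygen in both fractions, and for NUP85 and SEH1L the call was met in ER-RNA alone. NUP133, at the membrane-facing end of the complex, had log2 fold changes of -0.52 and -0.80, and fell in ER-RNA. NUP160, the member with the smallest difference, read 9.11 and 8.75, then 7.78 and 7.04, and was called in neither fraction (z-scores -1.34 and -2.92).

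The inner ring lies at the waist of the pore and joins it to the membrane. Of its 5 members 4 fell in each fraction, though not the same 4, with median log2 fold changes of -0.95 and -1.10. NUP93, which links the inner ring to the central channel, read 9.81 and 8.71 in total RNA and 8.46 and 7.14 in ER-RNA, falling by 1.10 and 1.32. NUP155, a subunit that contacts the membrane, read 11.04 and 10.10, then 9.66 and 8.51, falling by 0.95 and 1.16. NUP205, a large scaffold subunit, read 9.34 and 8.25, then 7.61 and 6.78. NUP205 fell by 1.09 in total RNA, and by 0.83 in ER-RNA.

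NUP188, the paralog of NUP205, read 9.58 and 8.72 in total RNA and 7.08 and 6.74 in ER-RNA. It fell by 0.86 in total RNA, and its log2 fold change of -0.34 in ER-RNA was not called. NUP35, a membrane-binding subunit, had the opposite order, with 8.21 and 7.84 in total RNA (log2 fold change -0.37, not called) and 8.45 and 7.35 in ER-RNA (a fall of 1.10). Joined after the values were seen, and without SEC13, the outer and inner rings held 7 of 12 genes that fell in total RNA and 10 of 12 in ER-RNA, with medians of -0.79 and -1.09. Of the 13 nucleoporins outside the rings, 12 were expressed, and 1 of them fell in total RNA against 2 in ER-RNA. The medians of the 13 were -0.28 and -0.46. This contrast was not tested.

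**Figure D2:**
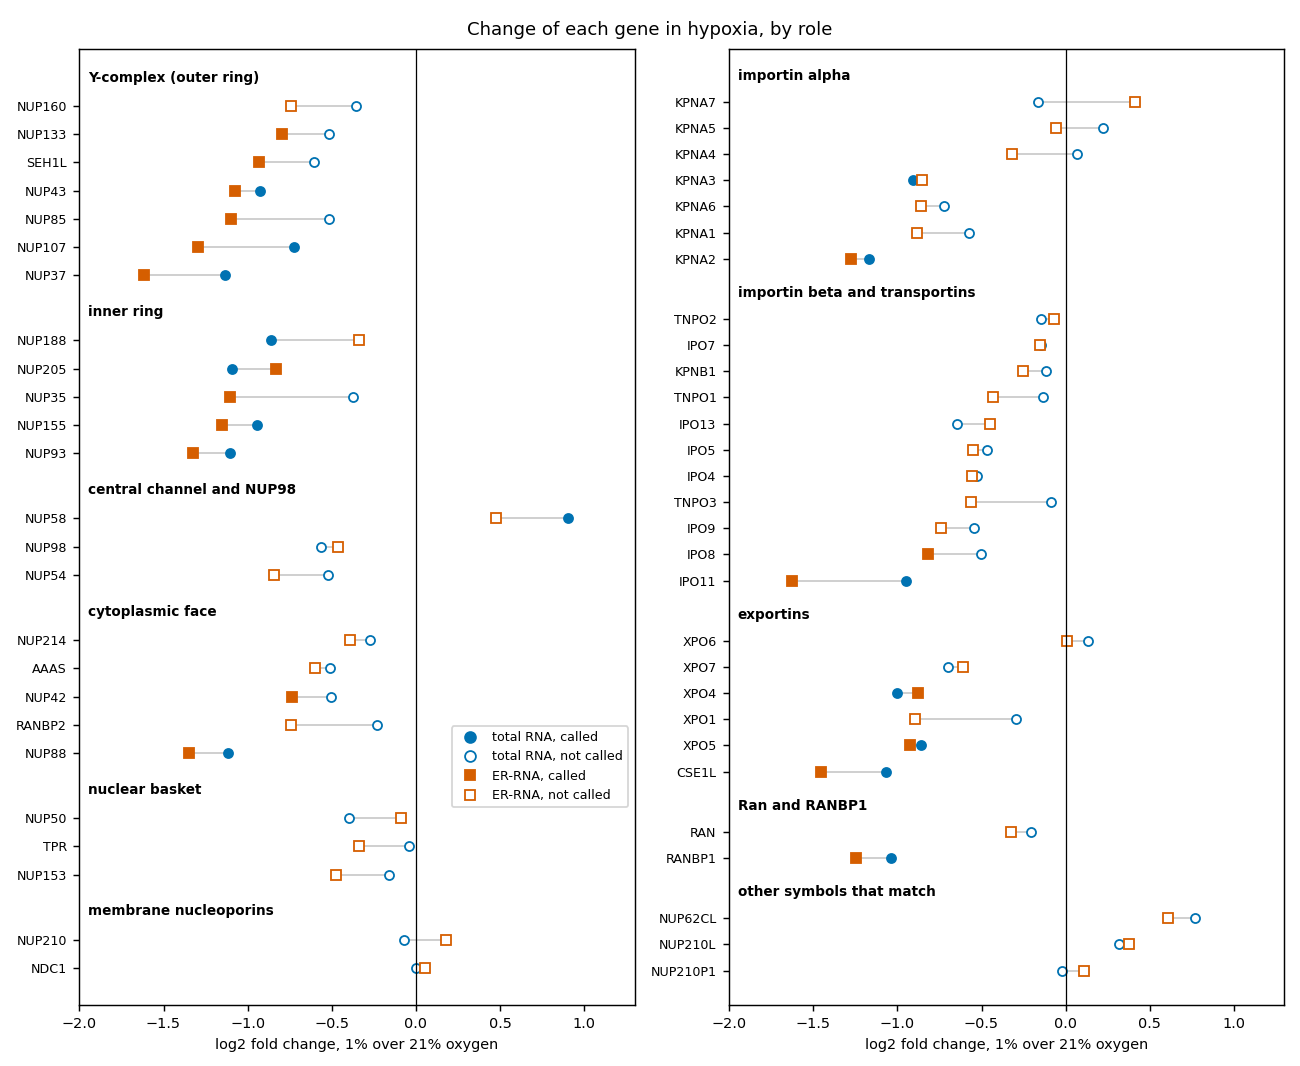
Log2 fold change at 1% over 21% oxygen (horizontal axis) of each of the 54 genes, drawn as circles for total RNA and squares for ER-RNA, 1 pair of arrays each, with filled symbols for called genes. Ring genes lie between -0.34 and -1.62, the membrane nucleoporins NDC1 and NUP210 lie near 0, and NUP58 is the filled symbol to the right of 0.

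In the central channel with NUP98, 0 of 3 genes fell and 1 rose. NUP58, which forms the channel complex with NUP54 and NUP62, read 8.86 at 21% and 9.76 at 1% oxygen in total RNA and 8.67 and 9.15 in ER-RNA. Its level was 1.87 times the control level in total RNA (log2 fold change 0.90, z-score 3.28), which made it the member that rose, and 1.39 times the control level in ER-RNA, which was not called. With the arrays centred on their medians the log2 fold change was 0.83 and the call was not met. NUP54 read 8.63 and 8.11, then 8.63 and 7.78, and so was lower where its partner was higher, with log2 fold changes of -0.52 and -0.85 and no call. NUP98, a mobile nucleoporin rich in repeats, had log2 fold changes of -0.56 and -0.46 with no call.

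On the cytoplasmic face, which receives exported cargo, NUP88 fell in both fractions. It read 10.99 and 9.88 in total RNA and 10.22 and 8.87 in ER-RNA, falling by 1.12 and 1.35. Its binding partner NUP214 read 10.60 and 10.32, then 7.81 and 7.42, with log2 fold changes of -0.28 and -0.39 and no call. NUP42, a partner of GLE1 in mRNA export, read 7.65 and 7.14, then 7.25 and 6.51, and fell in ER-RNA by 0.74. RANBP2, the filament protein that binds Ran, had log2 fold changes of -0.23 and -0.74, and AAAS had -0.51 and -0.60, with no call for either. In all, 1 of the 5 genes of this face fell in total RNA, against 2 in ER-RNA.

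The nuclear basket and the membrane nucleoporins held no call. In the basket, TPR, its long filament protein, read 8.65 and 8.60 in total RNA and 7.20 and 6.86 in ER-RNA, and NUP153, which anchors the basket, had log2 fold changes of -0.16 and -0.48. NUP50, a partner of importin alpha, had -0.40 and -0.09. NDC1, a membrane-spanning nucleoporin, read 10.39 on both arrays of total RNA and 8.66 and 8.71 in ER-RNA. NUP210, which also spans the membrane, read 7.21 and 7.14, then 5.68 and 5.86, below the array medians throughout. The log2 fold changes of both membrane nucleoporins thus lay between -0.07 and 0.18.

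Importin alpha proteins are adaptors that recognise the classical nuclear localisation signal and hand cargo to importin beta. KPNA2, an importin alpha linked to proliferating cells, read 12.13 at 21% and 10.96 at 1% oxygen in total RNA, and 11.66 and 10.38 in ER-RNA. Its fall of 1.17 in total RNA, to 0.446 of the control level, was the lowest log2 fold change of all members in that fraction, and in ER-RNA it fell by 1.28. Its second probe set gave 12.10 and 10.94, then 11.57 and 10.30, and the same calls. KPNA3 read 10.73 and 9.82 in total RNA, a fall of 0.91, and 9.88 and 9.03 in ER-RNA, where its log2 fold change of -0.85 had a z-score of -2.63 and was not called.

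The 5 remaining importin alpha genes were called in neither fraction, and they were not uniform. KPNA1 and KPNA6 had log2 fold changes of -0.58 and -0.72 in total RNA and -0.88 and -0.86 in ER-RNA. KPNA4, which is closely related in sequence to KPNA3, read 10.73 and 10.80, then 9.66 and 9.34. Thus KPNA3 fell in total RNA, where KPNA4 had a log2 fold change of 0.07. KPNA5 and KPNA7 lay near or below the array median in total RNA, and KPNA7 had the highest value of the role in ER-RNA, 0.41.

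Importin beta proteins and transportins carry cargo through the channel themselves. All 11 had log2 fold changes below 0 in both fractions, but the calls were 1 (IPO11) in total RNA and 2 (IPO11 and IPO8) in ER-RNA. IPO11, an import receptor for ubiquitin-conjugating enzymes, read 9.83 and 8.88 in total RNA and 8.65 and 7.02 in ER-RNA. It fell by 0.95 and by 1.63, and its level of 0.323 of the control in ER-RNA was the lowest of the members. IPO8 read 9.18 and 8.68, then 7.62 and 6.81, and fell in ER-RNA by 0.82.

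KPNB1, the importin beta that works with the importin alpha adaptors, read 9.34 and 9.09 in ER-RNA and its log2 fold changes were -0.12 and -0.25, without a call. It was not called on arrays where its adaptor KPNA2 fell in both fractions. The smallest differences of the role were those of TNPO3 in total RNA (-0.09), an import receptor for splicing factors, and of TNPO2 in ER-RNA (-0.07). The medians of the role were -0.47 and -0.55.

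Exportins carry cargo out of the nucleus, and 3 of 6 fell in both fractions. CSE1L, which returns importin alpha to the cytoplasm, read 11.23 and 10.16 in total RNA and 11.20 and 9.74 in ER-RNA. It fell by 1.07 and 1.46, the lowest log2 fold changes among the exportins. XPO5, the exporter of microRNA precursors, read 9.90 and 9.05 in total RNA, and fell by 0.86 there and by 0.92 in ER-RNA. XPO4, whose cargo includes a translation factor, read 8.53 and 7.53, then 7.42 and 6.54, falling by 1.00 and 0.88. For XPO5 and XPO4 the falls in the fractions were within 0.13 of each other, and CSE1L fell by 0.39 more in ER-RNA.

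XPO1, the general exporter of proteins with a leucine-rich export signal, read 10.08 and 9.78 in total RNA. Its log2 fold changes of -0.30 and -0.89 were not called, the second with a z-score of -2.87. XPO6, the exporter of actin, read 11.42 and 11.55 in total RNA, and among the exportins its log2 fold changes of 0.13 and 0.01 were the ones above 0 in both fractions. XPO7 had -0.70 and -0.61 with no call.

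Of the pair Ran and RANBP1, RANBP1 fell. RANBP1, which helps to release Ran from karyopherins in the cytoplasm, read 8.95 and 7.91 in total RNA and 9.70 and 8.45 in ER-RNA, falling by 1.04 and 1.25. RAN itself read 10.99 and 10.78, then 11.23 and 10.91, with log2 fold changes of -0.21 and -0.32 and no call. The annotation order places this RAN probe set between RPP21 and DDR1, where RefSeq lists the RAN pseudogene RANP1, so the probe set may not be specific for RAN. The second RAN probe set read 9.97 and 9.78, then 10.12 and 10.11, also without a call. RAN was therefore not called by either probe set.

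The 3 remaining symbols held no call. NUP62CL read 5.96 and 6.73 in total RNA and 5.43 and 6.04 in ER-RNA, below the expression filter in both although its log2 fold changes were 0.77 and 0.61. NUP210L was also below the filter in both fractions, and NUP210P1, which passed it in ER-RNA with 6.62 and 6.73, had log2 fold changes of -0.02 and 0.11. By role, the medians were thus lowest for the inner ring in total RNA and for the inner ring and the Y-complex in ER-RNA, as the plot of medians by role shows.

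**Figure D3:**
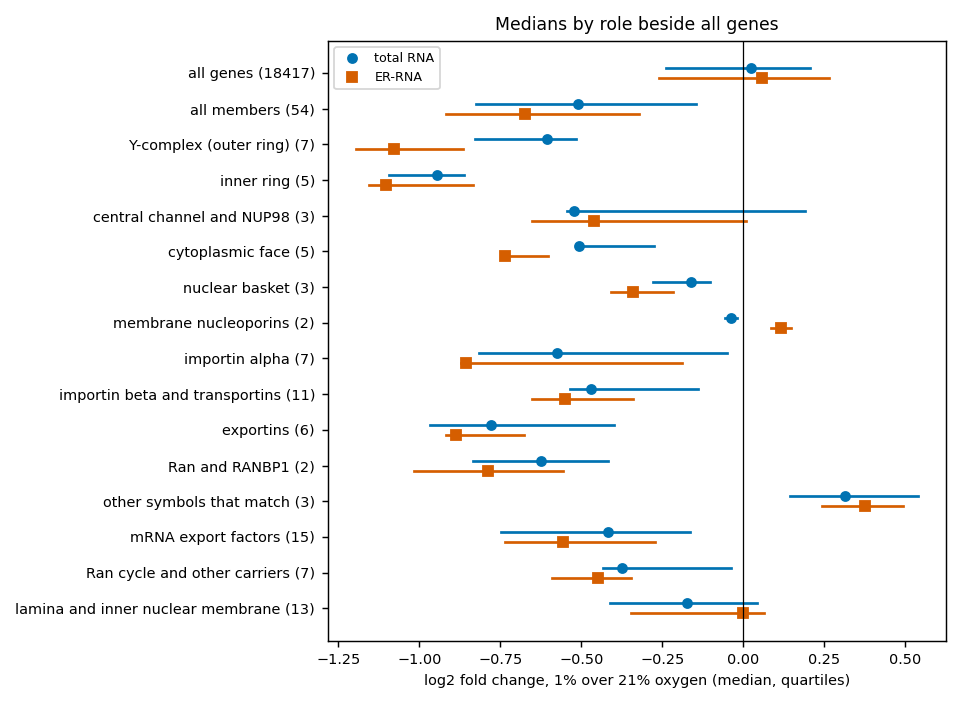
Median log2 fold change at 1% over 21% oxygen (points, with bars from the lower to the upper quartile over genes, not an error) for each role, for all members, for all genes and for 3 further lists, in total RNA and ER-RNA. All genes lie at 0.03 and 0.06, the 54 members at -0.51 and -0.67, and the inner ring at -0.95 and -1.10.

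Other parts of the transport pathway were taken as lists beside the members. Of 7 measured genes of the Ran cycle and other carriers, 0 were called in either fraction, with medians of -0.37 and -0.45. The lowest in both fractions was RANGAP1, the GTPase-activating protein of Ran, with -0.47 and -0.78, and the highest were PHAX (0.04) in total RNA and RANBP3 (-0.31) in ER-RNA. Of 3 measured pore subunits whose symbols the rule does not take, RAE1, a partner of NUP98 in mRNA export, read 9.12 and 8.39 in total RNA and 8.57 and 7.18 in ER-RNA. RAE1 fell by 1.39 in ER-RNA, while GLE1, an mRNA export factor of the cytoplasmic face, was not called, like SEC13.

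Of 15 measured mRNA export factors, 4 were called lower in total RNA, 3 of them in ER-RNA too, with medians of -0.42 and -0.56. ALYREF, an adaptor that joins mRNA to its exporter, read 10.14 and 9.19, then 10.38 and 9.15. NXT2, a partner of the exporter, fell by 0.86 and 1.20, and NCBP1, the large subunit of the nuclear cap-binding complex, by 0.93 and 1.11. DDX19A, a helicase that acts at the cytoplasmic face, fell in total RNA by 0.84 and had -0.56 in ER-RNA. The highest values were NXT1 in total RNA (0.28) and MCM3AP in ER-RNA (0.07).

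Neighbours of the pore in the nuclear envelope served for comparison. Of 13 lamina and inner nuclear membrane genes, 1 fell in each fraction, and the medians were -0.17 and 0.00. SYNE1 and SYNE2 lay below the expression filter, and over the 11 expressed genes the medians were -0.17 and -0.12. The gene that fell was TMPO, a lamina-associated protein, which read 9.40 and 8.35 in total RNA and 8.35 and 7.35 in ER-RNA. SUN2, which links the nuclear envelope to the cytoskeleton, had the highest values of the list, 0.17 and 0.31, and was not called. The median of the members thus lay below that of the envelope list in both fractions, a description that was not tested.

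The change in ER-RNA was set beside the change in total RNA for each gene. The log2 fold change in ER-RNA less that in total RNA was below 0 for 40 of 54 members (74.1%) and for 48.1% of all genes, and its median was -0.18 for the members and 0.01 for all genes. A median below 0 was not particular to the members. It was -0.26 for the Ran cycle and other carriers, -0.25 for the mRNA export factors and -0.17 for the pore subunits outside the rule. For the hypoxia markers it was -0.22, for the cytosolic list -0.03, for the lamina list 0.07 and for the secretory list 0.12. Over genes expressed in both fractions the medians were -0.21 for the members and -0.01 for all genes. Among the members the lowest values were those of NUP35 (-0.73), IPO11 (-0.68), XPO1 (-0.60), NUP85 (-0.58) and NUP107 (-0.57). The highest were those of KPNA7 (0.58), NUP188 (0.53) and NUP50 (0.31). By role the median difference was lowest for the Y-complex (-0.39), followed by the central channel (-0.32), the nuclear basket (-0.30), the cytoplasmic face (-0.23) and the inner ring (-0.21). It was -0.16 for Ran and RANBP1, -0.13 for importin alpha, -0.14 for importin beta and transportins and -0.09 for exportins, and it was above 0 for the membrane nucleoporins (0.15). With 1 array a group, no test of these differences was possible.

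The position of each transcript in ER-RNA over total RNA, less the median of all genes, was then read within each oxygen level. The members' median was -0.03 at 21% and -0.37 at 1% oxygen, where the middle of all genes ran from -0.43 to 0.44 and from -0.44 to 0.41 (quartiles). The gap between these medians depended on the normalisation, since they were -0.28 and -0.46 with quantile normalisation and -0.31 and -0.42 with loess within the pair. For each gene, the change in position between oxygen levels is the difference of log2 fold changes given above, less a constant. It is thus no separate measurement. The median of that difference over the members was -0.18, so the gap between the medians is not the typical change of a gene. Of the 54 members, 27 lay above 0 at 21% and 23 at 1% oxygen. RANBP1 (1.87, then 1.63), NUP37 (1.60, then 1.09), NUP35 (1.36, then 0.60) and RAN (1.35, then 1.22) had the highest positions at 21% oxygen. NUP214 (-1.68, then -1.82), NUP188 (-1.39, then -0.89), XPO6 (-1.30, then -1.45) and NUP98 (-1.27, then -1.19) had the lowest. The proteins that span the membrane, NDC1 (-0.62, then -0.59) and NUP210 (-0.42, then -0.19), lay below 0 as the secretory list did, and RANBP1, NUP37, NUP35 and RAN lay on the side of the cytosolic list. A position below 0 was not particular to membrane-spanning members, since NUP214, NUP188, XPO6 and NUP98 lay lower than NDC1 at both oxygen levels. NUP210 was also below the expression filter.

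**Figure D4:**
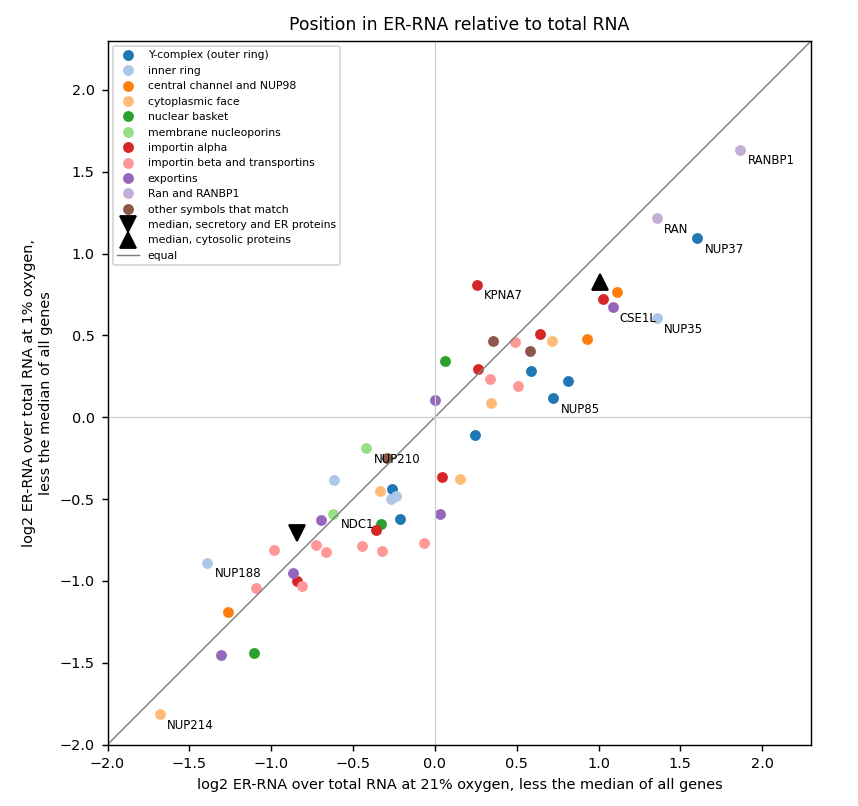
Log2 ER-RNA over total RNA of each member, less the median of all genes, at 21% oxygen (horizontal axis) and at 1% oxygen (vertical axis), 1 array each, with black triangles for the medians of the secretory and cytosolic lists and a line of equal values. Members spread from -1.68 (NUP214) to 1.87 (RANBP1) at 21% oxygen, with NUP188 and KPNA7 above the line and RANBP1, NUP37 and NUP35 below it.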

How the data were processed

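RNA of HT1080 cells was hybridised to 4 Affymetrix Human Gene 1.0 ST arrays. The authors normalised the arrays by RMA and deposited log2 values, and the submitters' processing notes name Partek 6.4. The sources used here do not state whether the fractions were normalised together. The table held 33297 probe sets, of which 19460 named 1 gene, 1754 several and 12083 none in the platform annotation, and 19429 of the 19460 matched RefSeq by gene identifier. The values carry no counts, and the precision is limited by the number of arrays, 1 a group.

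Hypoxia was compared with control within each fraction in R 4.3.3, using matrixStats 1.5.0 and limma 3.58.1. Calls required at least 1 array of the pair above its 50% quantile, a z-score past 3 and a fold change past 1.4. These thresholds follow the methods of the study. The SD of the z-score came from a loess curve (span 0.75, degree 2) of the SD of a pair against its mean over all expressed probe sets. This departs from the study, whose methods fit the model apart for treated and control samples. Here the curve was fitted to each pair, because 1 array a group gives no SD within a group. How the study fitted its model to these arrays was not reproduced. The numbers of genes called also differ from those of the study. ER-RNA over total RNA is the log2 difference less its median over all genes. The computation was tested on simulated data with normal noise and known changes. That test does not measure how often a call on these arrays is wrong. Named were the called members, the highest and lowest of each role and fraction, the membrane nucleoporins, the called, highest and lowest genes of the other lists, and EGLN3 and GAPDH. The lists were the 10 roles, 4 lists of neighbouring factors (pore subunits outside the rule, Ran cycle, mRNA export, lamina), secretory and cytosolic proteins, hypoxia markers and markers of mesenchymal, epithelial, endothelial and leukocyte cells. Members and lists were chosen with earlier results of these data known. Results were also computed with 10 other settings, namely a filter on both arrays, on 1 array above the 75% quantile, or none, the fold change alone, a fold threshold of 2, an SD from scaled median absolute deviations in 20 bins, arrays centred on their medians, quantile normalisation or loess within the pair, and the mean of all probe sets of a gene. Another, a fit on probe sets that name 1 gene, was added after the data were seen. A planned count of phenylalanine-glycine pairs was not made, because protein sequences were not used here. Promoters came from RefSeq (GRCh38.p14).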

Additional observations from a re-analysis of the deposited data

Results flagged for a closer look

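For 6 members the log2 fold change had opposite signs in the fractions, read from 1 pair of arrays each, and the difference was not tested. The log2 fold change in ER-RNA less that in total RNA was -0.39 for KPNA4 (0.07 in total RNA, -0.32 in ER-RNA), -0.28 for KPNA5 (0.22 and -0.05) and 0.58 for KPNA7 (-0.17 and 0.41). It was 0.25 for NUP210 (-0.07 and 0.18), 0.13 for NUP210P1 (-0.02 and 0.11) and 0.054 for NDC1 (-0.00 and 0.05). None of the 6 was called in either fraction.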

How the results depend on the processing

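Each group was 1 array, so leaving out a replicate was not possible. No paired analysis was possible because the groups hold 1 array each. Total RNA had 15 members that fell and ER-RNA 19. The counts became 29 and 32 by fold alone, 1 and 3 when the SD was taken from scaled median absolute deviations, and 8 and 12 with a fold threshold of 2. Under the other alternatives they ran from 10 to 15 and from 14 to 21. The call left in total RNA with the scaled deviations was NUP37, which lost its call where both arrays had to pass the 50% quantile or 1 array the 75% quantile. In ER-RNA CSE1L, IPO11 and NUP37 fell under all 11 alternatives. The count of members that rose in total RNA was 1, and it was 2 with no expression filter and 0 with the scaled deviations, with the fold threshold of 2 and with the arrays centred on their medians. With quantile normalisation within the pair the median log2 fold change of the members was -0.41 in total RNA (all genes -0.01) and -0.54 in ER-RNA (all genes 0.03), and the median ER-RNA over total RNA position at 21% oxygen was -0.28, and -0.31 with loess within the pair (at 1% oxygen -0.46 and -0.42). The cause of these movements was not tested. The median position at 21% oxygen, close to 0, was 0.0015 over the members past the expression filter, a change of sign. No other result changed direction under the alternatives run. NUP62CL, NUP210L and NUP210 lay below the expression filter in both fractions, so their signal limits what can be read from them.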

Other observations

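Probe sets that name a member together with other genes were read separately. The probe set shared by NUP62 and IL4I1 differed by 0.12 on the log2 scale in total RNA and, in ER-RNA, by 0.18. The 5 probe sets that name POM121 with its copies had log2 fold changes between -0.19 and 0.18 in total RNA, and between -0.23 and 0.10 in ER-RNA. The 8 probe sets that name RANBP2 with the RGPD genes ran from 0.05 to 0.21 and from -0.34 to -0.13, while the probe set that names RANBP2 alone had -0.23 and -0.74. None of these shared probe sets was called (0 of 14). Signals of these probe sets cannot be told apart between the genes they name.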
